A study of Mus musculus with 4 samples.

Results

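The oxysterol-binding protein family was described in the liver of diet-induced obese (DIO) mice given galanin-like peptide (GALP), a hypothalamic neuropeptide, through the nose. The family was taken as 10 genes, namely Osbp, Osbpl1a, Osbpl2, Osbpl3, Osbpl5, Osbpl6, Osbpl8, Osbpl9, Osbpl10 and Osbpl11. Every non-control probe that the array files name after one of these genes was included, which gave 19 of 41037 probes. The members were selected on a measured value, as the family was chosen by the GALP over control ratio of Osbpl5, so their ratios are given as a description and carry no test.

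Proteins of this family hold a lipid-binding domain that takes up a sterol or a phospholipid and carries it between membranes that lie close together. Most members attach to the endoplasmic reticulum (ER) through the VAP proteins, and several exchange their cargo for phosphatidylinositol 4-phosphate (PI4P), a lipid made at the Golgi and the plasma membrane and broken down at the ER membrane. Osbpl5 and Osbpl8 differ from the other members in that they are anchored in the ER membrane by their own tail and carry phosphatidylserine to the plasma membrane. In the liver the family is known for moving cholesterol and for sensing its oxidized derivatives, the oxysterols.

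The mice were C57BL/6J males, 8 weeks old at purchase, that weighed at least 40 g after 14 weeks on high-fat feed. All were first acclimatized with daily intranasal saline, and the high-fat feed went on during treatment. GALP (porcine, 1 nmol in the labels, in saline with 5% α-cyclodextrin) or saline was given in 2 µL once daily for 11 days, and the labels name the cyclodextrin for the GALP solution alone. Liver RNA was combined into 3 pools, namely 8 saline-treated control mice, 4 mice of the GALP group that lost more weight (greater weight loss) and 4 that lost less (less weight loss). The GALP pools thus differ by an outcome and not by treatment. Both were compared with the control pool on dual-colour arrays, once with GALP in Cy5 and once in Cy3, which gave 4 arrays on a single slide. Arrays of the same pool held the same RNA and count as 1 replicate, so that means and SDs are over n = 2 pools. The control was 1 pooled sample on all arrays. Its own spread enters no value, and all ratios share it.

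Ratios are log2 of GALP over control, where 1 is a doubling. A probe counted as having signal when, on each array, at least 1 of its channels was well above background, which held for 15713 of the probes. Between 42.8% and 46.7% of spots were well above background in the GALP channel and between 40.5% and 46.5% in the control channel, and no spot was saturated. Of 8 hepatocyte markers 7 had a probe under the names searched, and all 7 had signal, with mean ratios from -0.06 to 0.18. Skeletal muscle markers differed between the pools. For Ckm, Acta1, Myh4, Tnnt3 and Mylpf the ratios ran from 0.02 to 0.81 in the greater weight loss pool and from -2.88 to -1.62 in the less weight loss pool. The summed signal of these 5 genes ran from 1363 to 1616 in the control and from 263 to 2275 in the GALP channels, and its part in the values below was not tested. In bulk tissue, fewer cells of a type and less RNA per cell cannot be told apart.

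The oligonucleotides of Osbpl5 and of Osbpl8, whose probes differed from each other, are shown first. The arrays carry probes of 60 bases, and the first 30 bases of each are printed as the array files write them, with the mm9 position of the whole probe given by those files. Probes of a gene are numbered from the brightest. None of the letters are in capitals, since no part was singled out.
Osbpl5 probe 1, chr7:150874750-150874809: ttggagccttaatacttagttggtgccatc
Osbpl8 probe 1, chr10:110732836-110732895: gaaccataatgtgttcaaagtgtttgtagc
Osbpl8 probe 3, chr10:110719277-110721441: aaagccatttctagggagtagtgattatgt
The listed span of Osbpl8 probe 3 is longer than the probe, whereas probe 1 and the Osbpl5 probe each cover a single run of 60 bases. Whether a probe lies in a coding exon or an untranslated part was not determined, as no annotation of mm9 was used here.

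Osbpl5, the ER-anchored carrier of phosphatidylserine, was higher after GALP on every array. Its single probe had a processed signal of 1206 for the control and 2190 for GALP in the greater weight loss pool with GALP in Cy5. With the dyes exchanged the same pools gave 1156 and 1941. In the less weight loss pool the control gave 1314 and GALP 3305 with GALP in Cy5, and 1105 and 2392 with GALP in Cy3. The control signals lay between 1105 and 1314 and the GALP signals between 1941 and 3305. The extracts thus did not overlap, whichever dye they carried. This separation restates the ratio by which the family was chosen. The share of all probes that separate in this way is not given here.

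**Figure D1:**
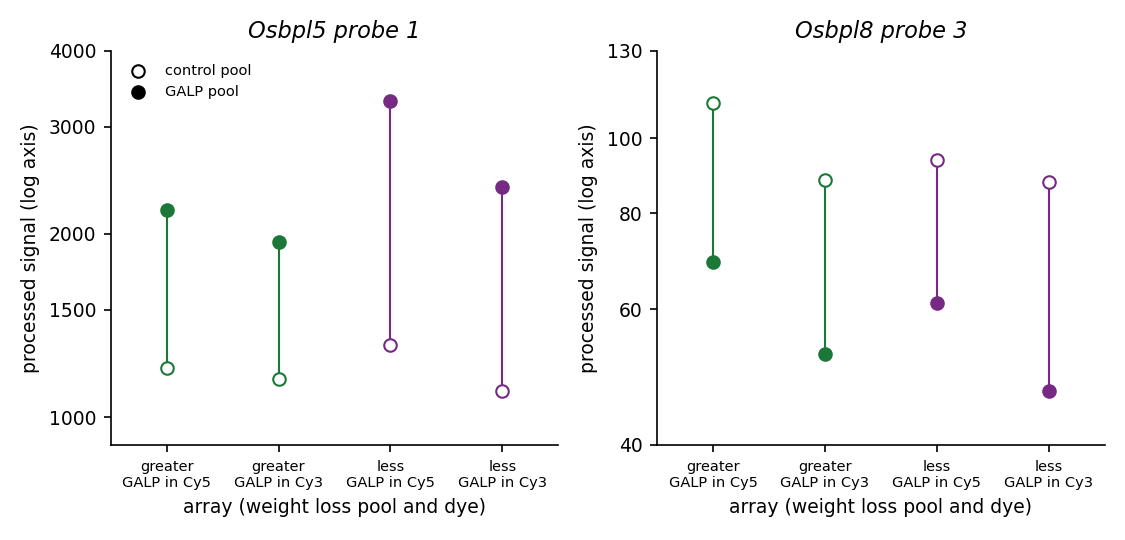
Processed signal (log axis) of the control pool (open circles) and the GALP pool (filled circles) on each of the 4 arrays, joined by array, for Osbpl5 probe 1 and Osbpl8 probe 3; green marks the greater and purple the less weight loss pool. The 4 GALP signals of Osbpl5 lie above its 4 control signals, and those of Osbpl8 probe 3 lie below.

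As ratios, Osbpl5 stood at 0.86 and 0.75 in the greater weight loss pool and at 1.33 and 1.11 in the less weight loss pool, with GALP in Cy5 and in Cy3 respectively. The pool means were 0.80 and 1.22 (1.75-fold and 2.33-fold), and the mean was 1.01 ± 0.30 (SD, n = 2 pools). The study's methods ask for a fold over 1.5 or under 0.75 and a p-value of the scanning software under 0.01, read here as both pools for the fold and all 4 arrays for the p-value and the direction. Osbpl5 met this rule, as 1 of 19 family probes, and it is the member whose ratio led to the choice of the family. Over the whole array the rule called 24 probes higher (0.0585% of 41037) and 54 lower (0.132%), and no family probe was among the lower. Osbpl5 ranked 9 of the 24 by mean ratio, which ran from 0.64 to 3.13.

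Osbpl5 was also higher in the less than in the greater weight loss pool. The greater minus less difference was -0.47 between the arrays with GALP in Cy5 and -0.37 between those with GALP in Cy3, with a mean of -0.42. The gap between these differences, 0.10, is smaller than the difference itself. Of all probes with signal, 7.17% had a pool difference of at least this size, and 16 of the 24 probes called higher had the larger ratio in the less weight loss pool. Each group is 1 pool, so the difference has no replicate check. With normexp background correction and loess in place of the software's ratios, it shrank to -0.25. The skeletal muscle markers, given above, were lower in the same pool in which Osbpl5 was higher, and their part in the difference was not tested.

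Markers of other liver cells gave 2 genes that met the rule, and both were higher. These were Marco, a scavenger receptor of macrophages, at 0.87 ± 0.25, and Lyve1, a hyaluronan receptor of sinusoidal endothelium, at 0.74 ± 0.05. The macrophage list as a whole had signal for 6 of 6 genes, with a median ratio of 0.21 and 3 genes above 0 on all arrays, and its summed signal ran from 22314 to 24951 in the control and from 24917 to 30562 with GALP. The endothelial list had signal for 6 of 6 genes, a median of 0.10, and summed signals from 22602 to 31703 in the control and from 22306 to 28079 with GALP. The stellate (5 of 6 genes with signal), bile duct (4 of 5), lymphocyte (4 of 6) and adipocyte (3 of 5) lists had no gene that met the rule, with medians of 0.19, -0.12, 0.10 and 0.06. The summed signal of the adipocyte genes ran from 8022 to 12600 in the control and from 14743 to 17885 with GALP, without overlap. The share of all probes that separate in this way is not given beside it. Most of this sum came from Cidec, a lipid droplet protein. Its signal alone ran from 7692 to 12240 in the control and from 14507 to 17621 with GALP. Adipoq was at 0.38 in the greater and -0.26 in the less weight loss pool. Of this list Cidec was at 0.75 ± 0.01 and Cfd, an adipokine, at -0.81 ± 0.11, and the B cell marker Ms4a1 was at -0.86 ± 0.19. Each of these 3 genes, chosen after their values were seen, had 1 direction on all 4 arrays and a software p-value under 0.01 on 3. The mean signal of Ms4a1 was 93.2. Of the other lymphocyte genes with signal, the B cell marker Cd79b was at -0.03 ± 0.04 and Cd3d at 0.23 ± 0.56. Ptprc was at 0.47 ± 0.12 and above 0 on all 4 arrays. Summed signals of the other lists overlapped between the extracts. The part of these lists in the Osbpl5 ratio was not tested.

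Osbpl8, the closest relative of Osbpl5 in anchoring and cargo, had 3 probes that differed from each other. Probe 3 was lower after GALP on all 4 arrays. Its control signals were 111 and 88.2 in the greater and 93.8 and 87.9 in the less weight loss comparison, against 69.2 and 52.5 and then 61.2 and 47.0 for GALP, with GALP in Cy5 given first. The extracts did not overlap, again without a share over all probes beside it. The ratios were -0.69, -0.75, -0.62 and -0.90, with a mean of -0.74 ± 0.03 (n = 2 pools).

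Probe 3 of Osbpl8 passed the fold and the direction but had a software p-value under 0.01 on 1 array, so it was not called. Without the p-value, 1 family probe was lower (Osbpl8 probe 3) and 1 higher (Osbpl5), against 360 probes lower (0.877%) and 154 higher (0.375%) over the array. These signals are close to the background, where the lowest signals well above it ran from 22.4 to 47.6. With normexp and its offset of 50 the mean of probe 3 was -0.11, still below 0 on all 4 arrays. Osbpl8 probe 1 gave -0.05, -0.33, 0.15 and -0.98, which cross 0, with a mean of -0.30 ± 0.16. Osbpl8 probe 2 was well above background in 2 of 8 channels, both on the less weight loss array with GALP in Cy3. There GALP gave 578 and the control 304, a ratio of 0.93 with a software p-value of 4.4e-05. Its ratios on the other arrays, from -1.53 to 0.03, rest on signals at background.

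**Figure D2:**
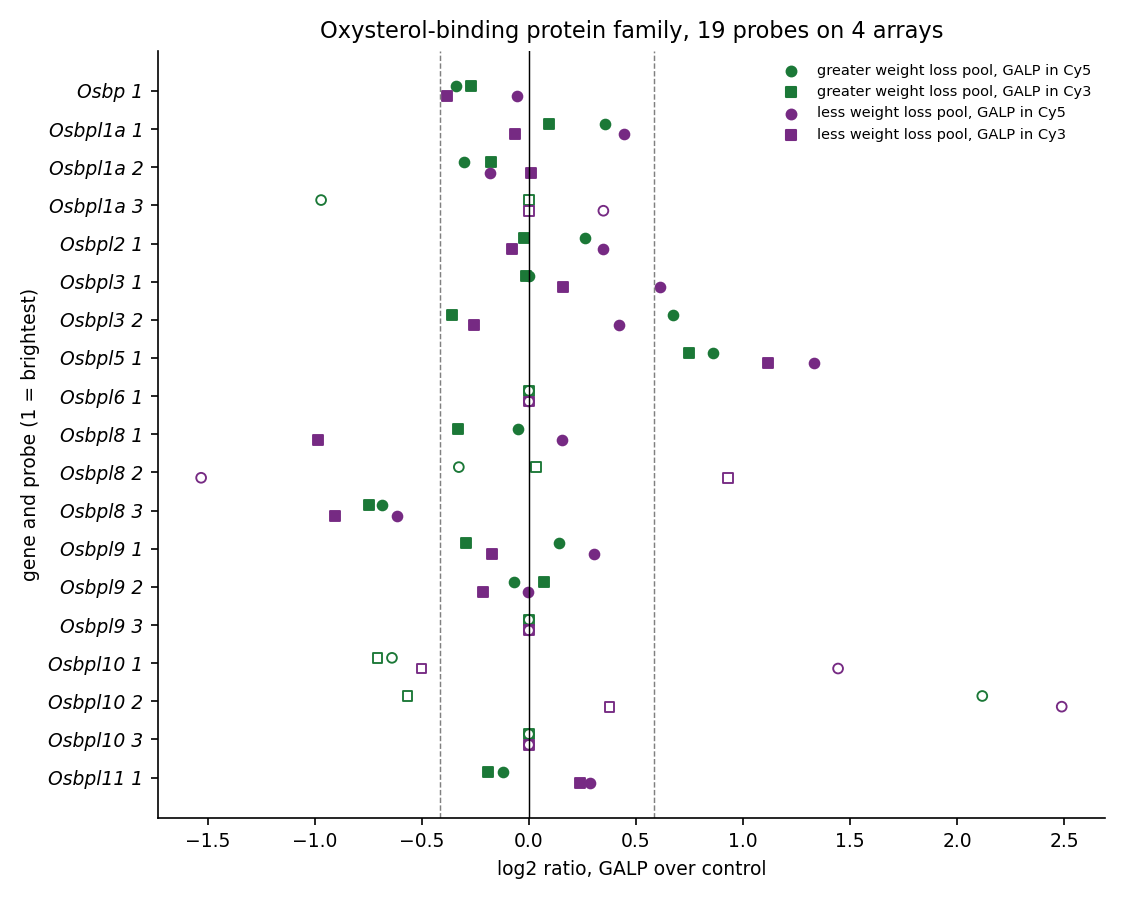
Log2 ratio of GALP over control of each of the 19 family probes on each of the 4 arrays; circles have GALP in Cy5 and squares GALP in Cy3, green is the greater and purple the less weight loss pool, open symbols mark the 7 probes without signal on every array, and dashed lines mark folds of 0.75 and 1.5. All 4 symbols of Osbpl5 lie right of the upper line and all 4 of Osbpl8 probe 3 left of the lower line. Those of Osbp lie below 0 on all 4 arrays, whereas the other probes with signal spread about 0.

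The founding member Osbp, which carries cholesterol from the ER to the Golgi, was a little lower on every array. Its ratios were -0.34 and -0.27 in the greater and -0.06 and -0.38 in the less weight loss pool, with a mean of -0.26 ± 0.06. With normexp and loess the mean was -0.09. Osbp and Osbpl8 probe 3 were 2 of the 12 family probes with signal that lay below 0 on all 4 arrays, and Osbpl5 was the 1 that lay above 0. Of all 15713 probes with signal, 15.7% lay below 0 on all 4 arrays and 11.4% above, so counts of this size are near the background.

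Osbpl1a, a member found on late endosomes, was read by 3 probes on chromosome 18, where the gene's long and short forms share their 3' part. The brightest gave 0.35, 0.09, 0.44 and -0.06, with a mean of 0.21 ± 0.02. Probe 2 gave -0.30, -0.18, -0.18 and 0.01, with a mean of -0.16 ± 0.11. These probes thus leaned in opposite directions, each crossing 0 on 1 array, and probe 3 was at background in all 8 channels.

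Osbpl2, a member linked to cholesterol and lipid droplets, gave 0.26, -0.02, 0.35 and -0.08, with a mean of 0.13 ± 0.01. Osbpl9, a member of the ER and Golgi, gave 0.14, -0.29, 0.31 and -0.17 at its brightest probe (mean 0.00 ± 0.10) and -0.05 ± 0.08 at probe 2, while probe 3 was at background in all channels. In Osbpl2 and in the brightest Osbpl9 probe the sign followed the dye and not the pool. The small SD over pools therefore understates the spread between their arrays.

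Osbpl11 and Osbpl3 had the largest pool differences after Osbpl5 among the family probes with signal. Osbpl11, which takes part in sterol handling in fat cells, gave -0.12 and -0.19 in the greater and 0.29 and 0.24 in the less weight loss pool. Its pool difference, greater minus less, was -0.41 with GALP in Cy5 and -0.43 with GALP in Cy3, and 7.20% of all probes with signal had a difference of at least this size. Osbpl3, linked to cell adhesion and the cytoskeleton, gave ratios of 0.00 and -0.02 in the greater and 0.61 and 0.16 in the less weight loss pool at its brightest probe. Its differences were -0.61 and -0.17. Osbpl3 probe 2 did not share this, with 0.67, -0.36, 0.42 and -0.25, where the sign followed the dye.

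The pool difference had the same sign in both dye orientations for 5 of the 12 family probes with signal, against 52.7% of all probes with signal. With normexp and loess the difference of Osbpl11 was -0.12 and that of the brightest Osbpl3 probe -0.20. Neither can be tested with 1 pool a group.

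Osbpl6 and Osbpl10 had no probe with signal on every array. The probe of Osbpl6 was at background in all 8 channels, and the software set its ratio to 0. Osbpl10 probe 2 gave 2.12 and 2.49 with GALP in Cy5 but -0.57 and 0.38 with GALP in Cy3. Its GALP signals were 43.7 and 46.1 in Cy5 and 16.1 and 18.6 in Cy3, and the control was not well above background on any array, so the high ratios belong to 1 dye. Taking the lowest signal well above background as the control's floor, no fold can be given. Osbpl10 probe 1 gave -0.64, -0.71, 1.44 and -0.50 and was well above background in 3 of 8 channels, and probe 3 was at background throughout.

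Many family ratios differed between the dye orientations by more than the size of their mean. The ratio was higher with GALP in Cy5 than in Cy3 for 11 of the 12 family probes with signal, and the size of this gap had a median of 0.20, against 0.19 over all probes with signal. At the brightest probe of each gene the signed gap had a median of 0.29 over the 8 members with signal, against 0.06 over all genes with signal. For 7 of the 12 probes the gap was larger than the mean ratio itself. The gap is the full distance between the orientations, and the mean lies midway between them. No share over all probes with signal is given for either count, so neither is read as a trait of the family. For Osbpl5 the gap was 0.16 against a mean of 1.01, and for Osbpl8 probe 3 it was 0.18 against -0.74.

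**Figure D3:**
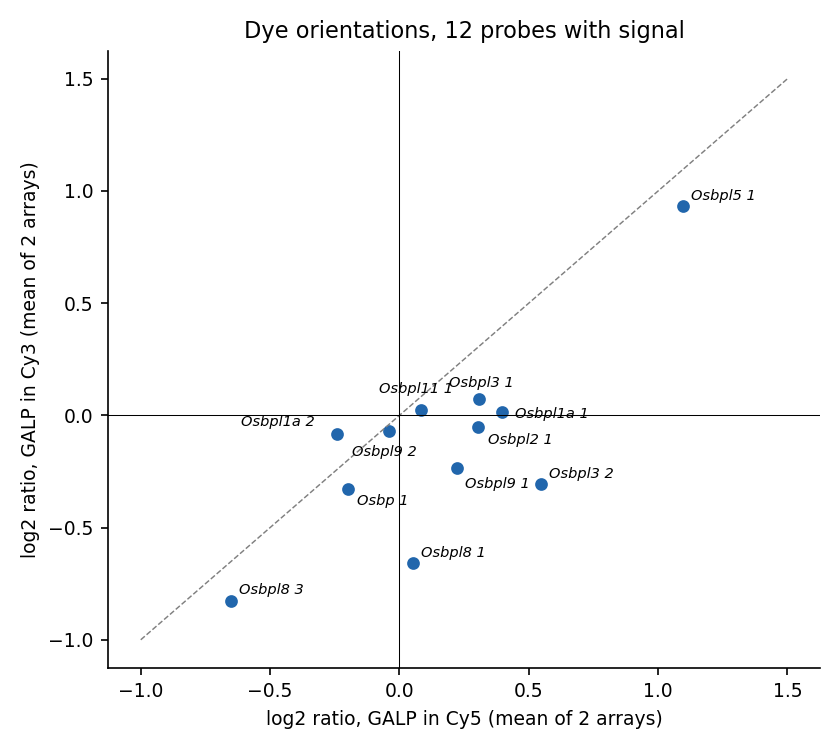
Mean log2 ratio over the 2 arrays with GALP in Cy5 (x axis) and over the 2 arrays with GALP in Cy3 (y axis) for the 12 family probes with signal, labelled by gene and probe number; the dashed line marks equal values. Osbpl5 lies far above 0 and Osbpl8 probe 3 far below 0 on both axes, and 11 of the 12 points lie below the dashed line.

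At the brightest probe of each gene, the 8 members with signal had a median ratio of 0.09, from -0.30 for Osbpl8 to 1.01 for Osbpl5. The median over all 11371 genes with signal was -0.01. Without Osbpl5 the other 7 members ranged from -0.30 to 0.21 with a median of 0.05. The median was -0.04 in the greater and 0.16 in the less weight loss pool, and it was 0.26 from the arrays with GALP in Cy5 alone but -0.02 from those with GALP in Cy3 alone. Its direction therefore depended on the dye.

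The genes that work with the family at membrane contact sites were taken from 5 lists with 39 genes. Of these 38 had signal and 0 had a probe called by the rule. The rule called 0.0585% of all probes higher and 0.132% lower, so a count of 0 is near the background. Limma on the pool ratios called 0 of all probes after Benjamini-Hochberg adjustment, against 4759 at an unadjusted p under 0.05. Osbpl5 was not called by it either. With 1 residual degree of freedom, this count of 0 carries no information on the lists. Over the lists 20 genes had a mean above 0 and 18 below, with a median of 0.03. On all 4 arrays 7 lay above 0 and 6 below 0, against 11.4% above and 15.7% below of all probes with signal.

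The ER anchors and tethers (7 of 7 genes with signal, median -0.05) hold the VAP proteins Vapa and Vapb, to which most members bind. Vapa stood at -0.05 ± 0.08 and Vapb at 0.03 ± 0.05. The largest values were those of Mospd2, another protein with a VAP-like domain, at -0.25 ± 0.12, and of Esyt2, an extended synaptotagmin, at -0.25 ± 0.33. Mospd2 was below 0 on all 4 arrays.

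The PI4P list (5 of 5, median -0.06) holds the lipid that drives the exchange. Sacm1l, the ER phosphatase that breaks PI4P down, stood at -0.06 ± 0.11. The largest values were those of the kinases Pi4k2b, at -0.35 ± 0.09 and below 0 on all arrays, and Pi4ka, at 0.23 ± 0.00 and above 0 on all arrays. Pi4ka makes the plasma membrane pool of PI4P.

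Of the phosphatidylserine list (3 of 3, median 0.07), which makes the cargo of Osbpl5 and Osbpl8, Ptdss2 was at 0.34 ± 0.11 and above 0 on all arrays. Pisd, which turns phosphatidylserine into phosphatidylethanolamine in mitochondria, was at -0.11 ± 0.02 and Ptdss1 at 0.07 ± 0.10.

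Among the other sterol and lipid transfer proteins (12 of 13 with signal, median 0.03), the largest values were both below 0. Gramd1c, an ER sterol transporter, was at -0.46 ± 0.01 and Stard4, a soluble cholesterol carrier, at -0.43 ± 0.04, each below 0 on all 4 arrays. Neither was called. Gramd1c passed the fold and the direction but had a software p-value under 0.01 on 1 array, and Stard4, at -0.41 in the greater weight loss pool, missed the fold as well as the p-value.

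Oxysterol synthesis and sensing (11 of 11, median 0.12) covers the enzymes that make or clear the ligands of the family. Cyp7a1, the first enzyme of bile acid synthesis, was at 0.55 ± 0.41, with 0.84 in the greater and 0.26 in the less weight loss pool. Cyp39a1, an oxysterol hydroxylase, was at 0.45 ± 0.02 and above 0 on all arrays. Neither met the rule over both pools. Cyp7a1, higher, met it in the greater weight loss pool alone. Cyp7b1, another oxysterol hydroxylase, was at 0.04 in the greater and -0.59 in the less weight loss pool, and met the rule, lower, in the latter alone.

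**Figure D4:**
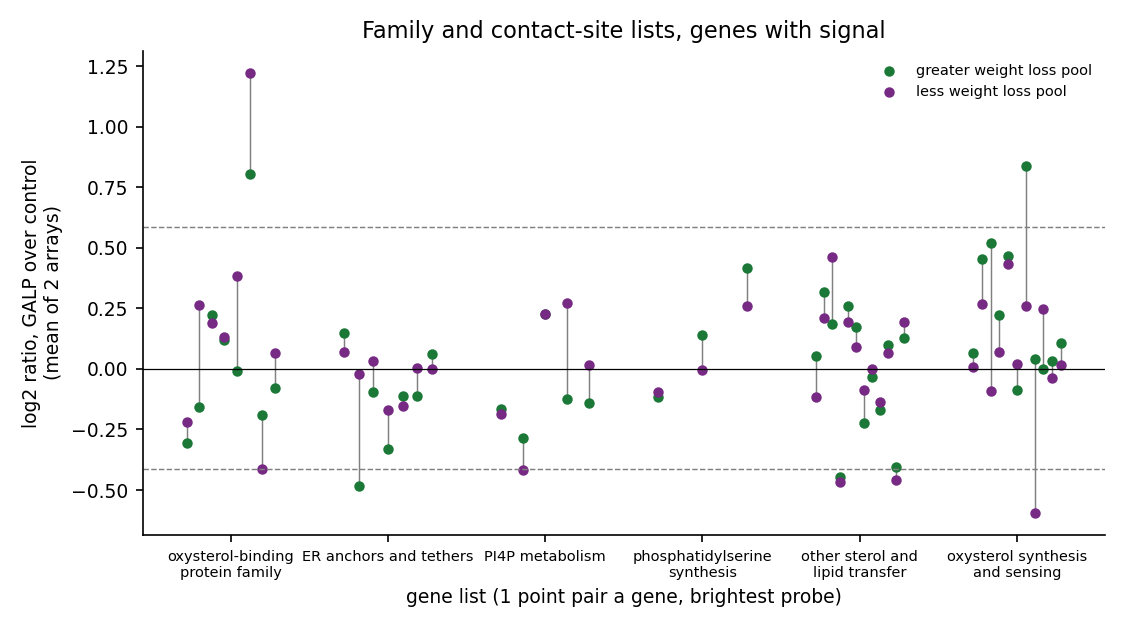
Log2 ratio of GALP over control, mean of 2 arrays, in the greater (green) and less (purple) weight loss pool for the brightest probe of each gene with signal in the family and in the 5 contact-site lists, a grey line joining the pools of a gene; dashed lines mark folds of 0.75 and 1.5. Osbpl5 is the gene with both points above the upper line, and most other genes lie between the lines.

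Osbpl5 lies on distal chromosome 7 near Kcnq1ot1, the RNA of a known imprinted region, and its neighbours were read for comparison. Within 500 kb of its probe the array files place 28 other probes of 15 genes, of which 14 probes of 8 genes had signal. None was called in either direction, and their mean ratios ran from -0.39 to 0.25. Cars, a tRNA synthetase gene, was at -0.35, -0.30 and -0.39 at its 3 probes, and Dhcr7, the last enzyme of cholesterol synthesis, at -0.28 and -0.39. Slc22a18, an imprinted transporter gene, was at 0.25 and 0.11. Osbpl5 is the probe in this window with both pool ratios above the 1.5-fold line.

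**Figure D5:**
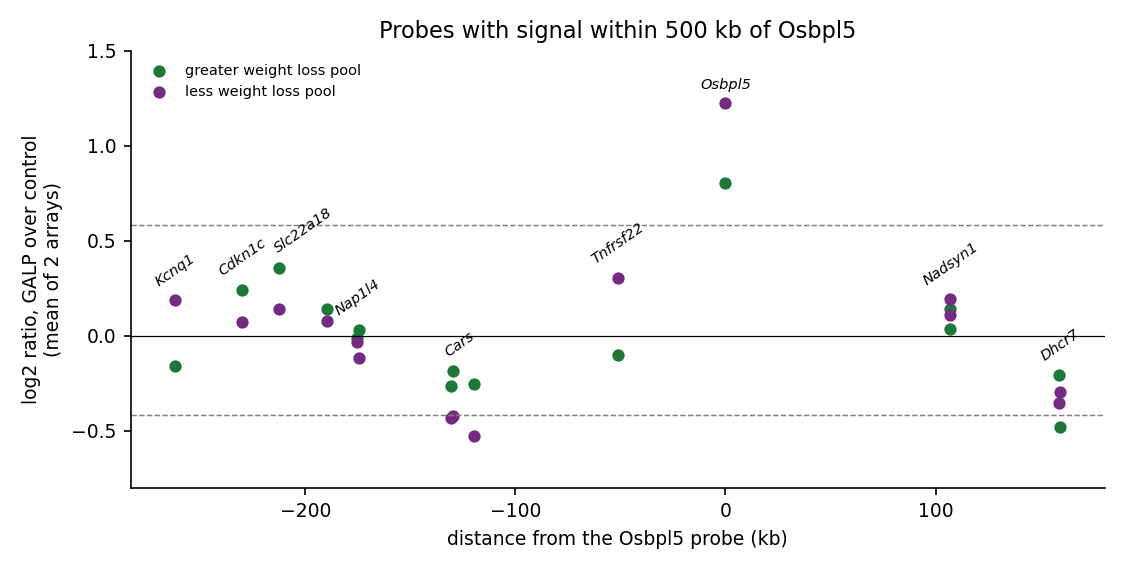
Log2 ratio of GALP over control, mean of 2 arrays, for probes with signal within 500 kb of the Osbpl5 probe, against distance from that probe in kb; green is the greater and purple the less weight loss pool, and dashed lines mark folds of 0.75 and 1.5. Osbpl5 stands at 0.80 and 1.22 at distance 0, and its neighbours lie between -0.53 and 0.36.

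The 5 probes whose 4 ratios lay nearest to those of Osbpl5, by Euclidean distance among 15712 probes with signal, were those of Nrg4 (distance 0.20), Cyp2b13 (0.25), Acot3 (0.32 and 0.38 at 2 probes) and Slc22a26 (0.41). Nrg4 is a secreted growth factor, Cyp2b13 a cytochrome P450, Acot3 a peroxisomal acyl-CoA thioesterase and Slc22a26 an organic anion transporter. Their mean ratios ran from 0.90 to 1.07, and all but Slc22a26 were called higher. The likeness is a description over 4 arrays that share the control pool.

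RefSeq promoter sequences (GRCm38.p6, from 250 bases before to 50 after a gene start) were given for 8 of the 10 members, with 12 promoters in all and 3 for Osbpl5. Their GC content had a median of 64.3%, against 52.7% over all 32851 promoters. Letters were searched on both strands. CCAAT was found in 8 of the 12 (37.4% of all promoters hold it), GGGCGG, a GC box, in 9 (35.7%), and TATAAA and the sterol regulatory element TCACNCCAC in 0 (13.6% and 1.24% of all). The E-box CACGTG was found in 2 promoters, those of Osbpl5 and Osbpl8, and 7.15% of all promoters hold it. These stretches are shown because they belong to the members whose probes with signal had the mean ratios farthest from 0, with the E-box in capitals.
Osbpl5 promoter, chr7:143757152-143757181, minus strand: ggtcgcgtgctcCACGTGccctctgcgcag
Osbpl8 promoter, chr10:111164689-111164718, plus strand: tccttgcggcgtCACGTGacgggaaggggg
The Osbpl5 E-box starts 161 bases and the Osbpl8 E-box 101 bases before the gene start. A match of letters does not show that a factor binds there.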

How the data were processed

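Probes of the 10 genes were read on 4 dual-colour arrays, 2 for each GALP pool with the dyes exchanged. The authors scanned the arrays with Agilent Feature Extraction (version 12.0.3.1 per the file headers, 11.0.1.1 in the submitters' processing notes), which gave the deposited processed intensity of each channel. It also gave the deposited log10 ratio of each spot, which was 0 at all spots with a substituted signal in both channels and at a few others, and a deposited p-value for each ratio from its error model, which covers a single array. In the deposited series table every log10 ratio is GALP over control. Its values matched the scanner files within 0.001 on the log2 scale wherever the software's ratio was not 0, and it served as an alternative.

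Ratios were expressed as log2 of GALP over control. Outlier-marked spots were dropped, then spots of a probe and arrays of a pool were averaged. The labels give the control channel a weight loss group too, while the paper describes 1 control pool, which is how it was used. The p-values of limma rest on the spread between 2 pools (1 residual degree of freedom), moderated over all probes. They leave out the spread of the control pool. The number of arrays limits the precision. A gene was represented by its probe with the highest mean signal over the 8 channels. The text names all members, genes of the lists with a called probe and the 2 of each list with the largest ratios. The defining members Vapa, Vapb, Sacm1l, Ptdss1, Pisd and Cyp7b1 were added after their values were seen. Also named are the 5 probes most like Osbpl5 and probes within 500 kb of it. From this window Cars, Dhcr7 and Slc22a18 were picked after their values were seen, and not every gene in it is named. Members, lists and tests were chosen with earlier results of these data known. Of the 19 probes 16 were matched to their gene in RefSeq by accession, which carries GRCm38.p6, while probe positions are mm9.

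Alternatives were normexp (offset 50) with loess, median centring, the series table, outlier marks kept, probes with signal alone, each pool left out, a single dye orientation, other p-value rules, limma, and the mean of all probes of a gene. The rule and limma were run on simulated data with independent noise, without the shared control or the dye differences of the real arrays. That run does not show their accuracy on these arrays. Python 3.11.15, numpy 2.4.6, pandas 2.3.3, scipy 1.17.1, matplotlib 3.10.9, R 4.3.3 and limma 3.58.1 were used. The metabolome was not analysed here.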

Additional observations from a re-analysis of the deposited data

Results flagged for a closer look

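Among probes with signal, the results here moved one way on both arrays of the greater weight loss pool and the other way on both arrays of the less weight loss pool, and the difference was not tested, since each group is 1 pool. Values are greater minus less weight loss differences in log2 ratio. Among the members these were Osbpl11 at -0.42 and the brightest probe of Osbpl3 at -0.39, where the greater weight loss pool of Osbpl3 was within 0.02 of 0. Of the contact-site lists it was Cyp7b1, an oxysterol hydroxylase, at 0.64. Of the marker lists these were Apoa1 of hepatocytes at 0.32, Spp1 of bile duct cells at -0.55, Adipoq of adipocytes at 0.63, and Ckm, Acta1, Myh4 and Tnnt3 of skeletal muscle at 2.25, 2.98, 3.02 and 3.21. No group held 4 samples, so outlying samples were not looked for.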

How the results depend on the processing

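Osbpl5 was called higher, with a log2 ratio between 0.80 and 1.22, under every alternative except limma, which called 0 probes in either direction (unadjusted p under 0.05 for 2049 higher and 2710 lower). The family probes called higher were 2 from the arrays with GALP in Cy5 alone (Osbpl5 and Osbpl10 probe 2) and 0 with limma, and 1 was lower without a p-value (Osbpl8 probe 3). The pool difference of Osbpl5 was -0.25 with normexp and loess. The median over members was 0.26 from the arrays with GALP in Cy5 alone.

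Over all probes, the higher and lower counts were 9 and 26 with normexp and loess, 134 and 140 from GALP in Cy5 alone, 140 and 156 from GALP in Cy3 alone, 154 and 360 without a p-value, and 53 and 167 where 1 array a pool had to pass the p-value. Leaving out a pool gave 96 to 122 higher and 150 to 162 lower. The contact-site lists held 1 called gene without a p-value (Gramd1c), 1 from GALP in Cy3 alone (Stard4), and 1 without either pool (Cyp7a1 without the less, Cyp7b1 without the greater weight loss pool). Other counts over these rules differed by less than 1.5 times, and no value of Osbpl5 turned sign. For the other members, 24 of 88 ratios and 8 of 61 pool differences did not stay within their spread. The sign was kept by 75 and 52. The spread is the SD over pools for a ratio and the gap between dye orientations for a pool difference. Osbpl6, with value and spread at 0, is counted as outside even where it stayed at 0, and as keeping its sign. Leaving out a pool cannot move a ratio beyond its SD, nor a single dye orientation a pool difference beyond its gap. These counts therefore do not measure robustness. The causes were not tested. Signals near background limit Osbpl8 probe 3, Osbpl3 probe 2 and Osbpl10.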
